A study of Mus musculus with 2 samples.

Results

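The R-spondin receptor genes Lgr4, Lgr5 and Lgr6 and the R-spondin genes Rspo1, Rspo2, Rspo3 and Rspo4 were followed across the cell classes of newborn mouse back skin. These 7 genes were taken by symbol from the 56694 genes of the count tables, and each symbol matched 1 identifier. Single-cell RNA was counted at postnatal day 2 in 2 libraries, 1 per genotype. The Gli2EKO library came from K14Cre;Gli2 fl/fl mice, in which Cre driven by the keratin 14 promoter deletes the Hedgehog transcription factor Gli2 in keratinocytes. The control library was labelled wild type, and the study used floxed littermates without Cre as controls. Dermal cells are not a target of K14Cre and carry an intact Gli2 gene in both libraries. With 1 library per genotype, the genotype and the library cannot be told apart. The sources used here do not say how many mice each library pools.

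Lgr4, Lgr5 and Lgr6 encode related seven-pass membrane receptors that bind secreted R-spondins. An R-spondin bound to its receptor draws the membrane ubiquitin ligases Znrf3 and Rnf43 away from the cell surface. Frizzled and Lrp6, the receptors for Wnt, then stay at the membrane and the response to Wnt is raised. In skin, Lgr5 is known from cycling stem cells of the lower hair follicle, Lgr6 from the upper follicle near the sebaceous gland, and Lgr4 from many epithelial cells. The dermal papilla, a cluster of fibroblasts at the follicle base, is known to secrete R-spondins.

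Lgr5, Lgr6, Rspo2 and Rspo3 are introduced by the sequence before their start, because they carry the spatial contrasts of the data. Lgr5 and Lgr6 led in different keratinocyte classes, and Rspo2 and Rspo3 both led in the dermal papilla. Each run holds the 250 bases before the annotated start of the canonical transcript in GRCm39, written 5′ to 3′ on the gene's own strand, with every CG dinucleotide in capitals.
Lgr5, chr10:115423686-115423935, minus strand: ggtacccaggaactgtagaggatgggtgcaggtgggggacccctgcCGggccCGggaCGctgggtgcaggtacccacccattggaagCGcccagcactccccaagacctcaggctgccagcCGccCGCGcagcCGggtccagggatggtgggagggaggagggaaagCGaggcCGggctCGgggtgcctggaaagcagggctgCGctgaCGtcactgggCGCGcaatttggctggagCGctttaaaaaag
Lgr6, chr1:135033101-135033350, minus strand: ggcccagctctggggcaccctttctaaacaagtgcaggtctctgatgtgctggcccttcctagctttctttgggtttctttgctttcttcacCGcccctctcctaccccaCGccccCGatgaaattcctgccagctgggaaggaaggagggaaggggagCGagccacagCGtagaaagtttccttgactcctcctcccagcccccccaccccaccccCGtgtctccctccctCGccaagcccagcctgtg
Rspo2, chr15:43034707-43034956, minus strand: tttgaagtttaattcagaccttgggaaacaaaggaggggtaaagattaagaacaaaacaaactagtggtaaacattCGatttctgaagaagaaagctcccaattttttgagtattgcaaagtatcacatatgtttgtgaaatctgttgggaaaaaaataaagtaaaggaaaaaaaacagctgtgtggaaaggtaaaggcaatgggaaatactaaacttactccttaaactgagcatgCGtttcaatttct
Rspo3, chr10:29411877-29412126, minus strand: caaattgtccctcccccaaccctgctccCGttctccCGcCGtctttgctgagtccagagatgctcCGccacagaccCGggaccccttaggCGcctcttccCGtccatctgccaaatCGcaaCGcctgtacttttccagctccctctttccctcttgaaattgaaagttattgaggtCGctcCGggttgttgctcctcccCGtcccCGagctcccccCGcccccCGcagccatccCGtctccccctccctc
The Lgr5 and Rspo3 runs each held 16 CG dinucleotides, the Lgr6 run 7 and the Rspo2 run 2. The median over 21770 protein-coding genes was 8, with quartiles of 3 and 16. The TCF/LEF core CTTTGA, read on both strands, was in none of the windows of the 7 genes and in 14.1% of all windows. The TATA box letters TATAAA, also read on both strands, were in none of the 7 and in 11.9% of all windows. These counts describe the letters only.

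In GRCm39, Lgr4 (ENSMUSG00000050199) lies at chr2:109747839-109844609, Lgr5 (ENSMUSG00000020140) at chr10:115286216-115423685 and Lgr6 (ENSMUSG00000042793) at chr1:134911039-135033100. Rspo1 (ENSMUSG00000028871) lies at chr4:124879876-124902892 and Rspo2 (ENSMUSG00000051920) at chr15:42877439-43034706. Rspo3 (ENSMUSG00000019880) lies at chr10:29327285-29411876 and Rspo4 (ENSMUSG00000032852) at chr2:151684708-151716605. All 7 genes are protein-coding, with 18 exons in the canonical transcript of each Lgr gene, 6 in Rspo1 and Rspo2, and 5 in Rspo3 and Rspo4.

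After filtering, 4457 control cells and 3094 Gli2EKO cells were kept, with a median of 11828 and 11938.5 unique molecular identifiers (UMIs, one per captured RNA) per cell. No barcode was shared by the libraries. The kept cells fell into 5630 keratinocytes in 14 clusters and 1921 other cells in 15 clusters. Classes were named from fixed marker genes, and the 7 genes were left out of the clustering. The samples are labelled epidermis, but 825 control and 636 Gli2EKO cells had fibroblast-lineage markers, so the dermal sources of R-spondins were also covered. One keratinocyte cluster, led by Flrt2, Tagln, Slit3 and Acta2, was left unnamed and is called the Tagln/Acta2 cluster. Its best marker score was for the outer root sheath stem-like list, at 1.36 with 7 markers detected, ahead of 1.11 for the lower outer root sheath. Of these lists, only the lower one had a marker among its 10 leading genes, Slit3, so no name was given. Levels are given in CPM, the pooled count of a gene in a class scaled to 1000000 UMIs of the same cells. Each CPM carries an exact 95% Poisson interval, and each log2 ratio of Gli2EKO over control CPM an exact 95% interval. These intervals cover counting error only, and no test between genotypes was possible. Gli2 itself stood at 83.0 CPM in control and 84.6 CPM in Gli2EKO keratinocytes. As the deleted exons are not stated and the assay counts RNA 3′ ends, this value does not check the labels. The study measured Gli2 RNA separately, by quantitative PCR in back skin epidermis of Gli2EKO and control littermates, and that measurement is not used here.

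The receptors were mostly keratinocyte RNAs and the R-spondins mostly dermal RNAs. In the control library, keratinocytes held 89.1% of the Lgr4 UMIs, 90.4% of the Lgr5 UMIs and 96.9% of the Lgr6 UMIs. In the Gli2EKO library the shares were 89.4%, 88.0% and 95.6%. Fibroblast-lineage cells held 89.2% of the Rspo1 UMIs, 97.1% of the Rspo2 UMIs and 97.1% of the Rspo3 UMIs in control. In Gli2EKO they held 94.99%, 99.7% and 98.0%. Rspo4, with 59 control and 48 Gli2EKO UMIs in kept cells, was the gene with the fewest counts.

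Lgr5 was highest in the Tagln/Acta2 cluster and next highest in outer root sheath (ORS) stem-like cells. The ORS is the outer cell layer of the follicle, and its stem-like cells were named here from Lhx2, Sox9, Nfatc1, Tbx1 and related genes. In the Tagln/Acta2 cluster Lgr5 stood at 735 CPM (interval 698 to 775) in control and 701 CPM (642 to 764) in Gli2EKO. In ORS stem-like cells it stood at 456 CPM (445 to 468) in control and 395 CPM (380 to 411) in Gli2EKO. The intervals of these classes did not overlap in either library. The ORS stem-like class held 71.0% of the control keratinocyte UMIs of Lgr5 with 29.3% of the cells, and 71.8% of the Gli2EKO UMIs with 23.7% of the cells. The matrix/progenitor class, named from Shh, Msx1, Edar and other genes of the growing follicle base, followed at 70.0 CPM in control and 102 CPM in Gli2EKO.

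Other keratinocyte classes were set beside cells that should lack Lgr5. Immune and endothelial cells together had 19.2 CPM in control, from 23 UMIs in 10 of 114 cells, and 1.86 CPM in Gli2EKO, from 1 UMI in 45 cells. Of the 23 control UMIs, 8 came from 1 cell. Control inner root sheath cells, at 9.92 CPM, and hair shaft and early lineage cells, at 2.74 CPM, lay lower. The control value is therefore a rough guide to background and not a floor. Basal cells of the interfollicular epidermis (IFE) had 12.9 CPM in control and 3.82 CPM in Gli2EKO. A single IFE basal cell held 28 of the 78 control UMIs. These IFE values are read as background, and no difference between the libraries is drawn from them. Upper follicle cells had 28.0 CPM in control and 16.4 CPM in Gli2EKO, and the control interval (23.2 to 33.6) overlapped that of the immune and endothelial cells (12.2 to 28.8). In Gli2EKO the upper follicle interval (12.3 to 21.2) lay above that of the immune and endothelial cells (0.047 to 10.3). The companion layer had 42.7 CPM (34.2 to 52.7) in control and 23.0 CPM (14.9 to 33.9) in Gli2EKO, each above the immune and endothelial interval of its own library.

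Of the classes, Lgr6 was highest in the upper follicle, named from Lrig1, Plet1, Gata6, Sostdc1, Scube2 and Aldh3a1. There it stood at 309 CPM (293 to 327) in control and 225 CPM (209 to 242) in Gli2EKO. The sebaceous gland class, which makes skin lipid, was second in control at 181 CPM (163 to 201). In Gli2EKO the sebaceous gland, at 116 CPM, and the matrix/progenitor class, at 121 CPM, had overlapping intervals. IFE basal cells had 55.1 CPM in control and 27.5 CPM in Gli2EKO, and IFE suprabasal cells 17.1 and 6.89 CPM. Immune and endothelial cells had 1 UMI of Lgr6 in control and none in Gli2EKO, which at 3 counts allows up to 5.57 CPM there. The IFE basal values lay above that background. The upper follicle held 33.04% of the control keratinocyte UMIs of Lgr6 and 36.6% of the Gli2EKO UMIs. This share depended on where the cells around the upper follicle were placed, and it ranged up to 65.9% under other clusterings of the control cells.

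Lgr4 was the most widely spread receptor. Of the classes, its highest was the companion layer, at 351 CPM (326 to 378) in control and 376 CPM (340 to 414) in Gli2EKO. Under other settings the log2 ratio there ranged from -0.99 to 0.37. The companion layer is the sheet between the outer and inner root sheaths. The class was named from Krt6a, Krt79, Krt75, Cst6 and Krt16. Krt6a, Krt79 and Cst6 were among its leading genes, but Krt75 was among those of the inner root sheath, so the class is companion-like at most. ORS stem-like cells followed at 295 CPM in control and 283 CPM in Gli2EKO. The Tagln/Acta2 cluster had 285 and 303 CPM, which did not differ from the ORS stem-like class beyond the intervals. Matrix/progenitor, inner root sheath, sebaceous gland and upper follicle cells lay between 132 and 168 CPM in control and between 82.3 and 121 CPM in Gli2EKO. The lowest keratinocyte class was the IFE suprabasal layer, at 36.0 and 24.0 CPM, beside 25.9 and 22.3 CPM in immune and endothelial cells. The dermal papilla, at 182 CPM in control and 189 CPM in Gli2EKO, was the highest dermal class. Single clusters went higher, the Nlgn1 cluster of the ORS stem-like class at 554 and 510 CPM and the Sox5 cluster of the matrix/progenitor class at 487 and 413 CPM.

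**Figure D1:**
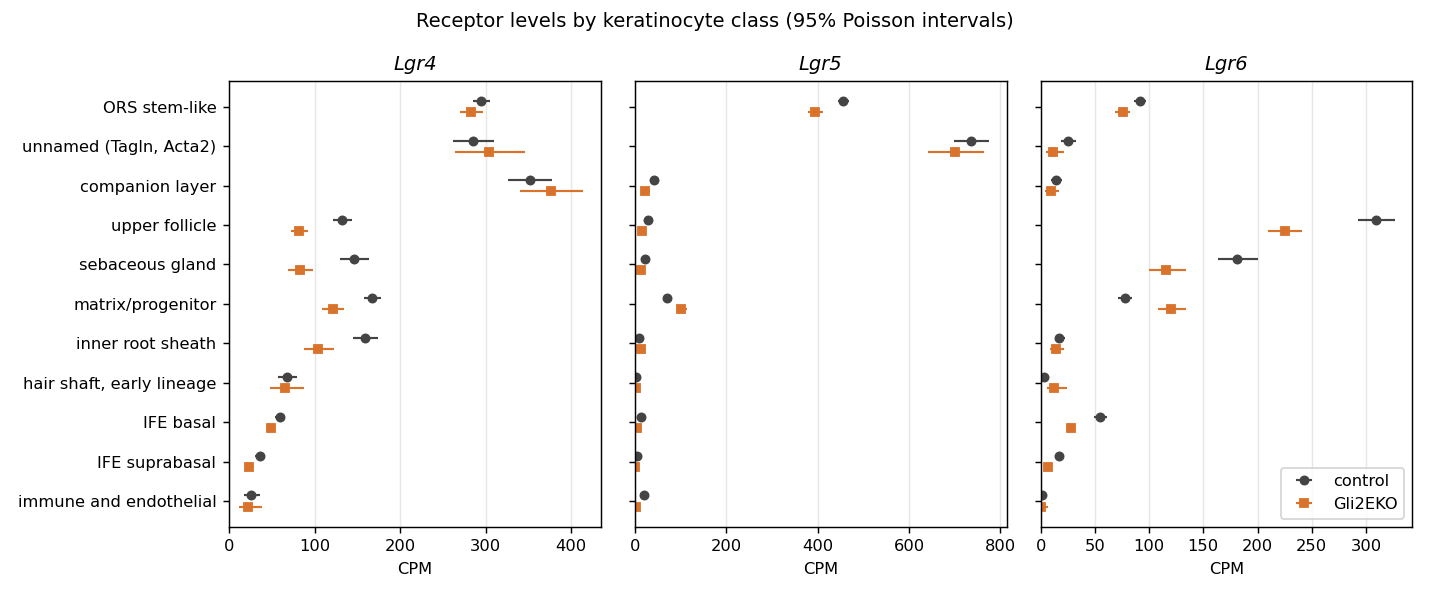
Level of Lgr4, Lgr5 and Lgr6 in CPM (horizontal axes, linear and different for each gene) in each keratinocyte class and in immune and endothelial cells, for control (circles) and Gli2EKO (squares), with 95% Poisson intervals as bars. Lgr5 stands at 735 and 456 CPM in the top pair of control classes and at 70.0 CPM or less in the other keratinocyte classes, while Lgr6 peaks in the upper follicle at 309 CPM and Lgr4 in the companion layer at 351 CPM.

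The ORS stem-like class was made of 3 clusters, and the receptors divided them. The cluster led by Spon1 and Sfrp1 had 524 CPM of Lgr5, 210 CPM of Lgr4 and 14.5 CPM of Lgr6 in control. The cluster led by histone genes and Tbx1 had 462 CPM of Lgr5, 240 CPM of Lgr4 and 41.8 CPM of Lgr6. The cluster led by Nlgn1 and Adamts19 had 316 CPM of Lgr5, 554 CPM of Lgr4 and 327 CPM of Lgr6. The Nlgn1 cluster was therefore highest of the 3 in Lgr4 and Lgr6 and lowest in Lgr5, and the same order was seen in Gli2EKO. In Gli2EKO the Lgr5 interval of the Nlgn1 cluster (299.9 to 363) overlapped that of the histone cluster (360.2 to 411.5). Its control level of Lgr6, 327 CPM, had an interval that overlapped that of the upper follicle, and in Gli2EKO its 279 CPM lay above the 225 CPM of the upper follicle. Its median depth was 8580 UMIs per control cell, against 11405 in the Spon1 cluster and 16736 in the histone cluster. The part of depth in these levels was not tested.

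The receptors were often counted in the same ORS stem-like cell. After each cell was thinned to 5000 UMIs, 72.2% of 918 control cells had a UMI of Lgr5, 66.4% one of Lgr4 and 23.4% one of Lgr6. Lgr4 and Lgr5 were found together in 45.4% of the cells (95% Clopper-Pearson interval 42.2 to 48.7), where the product of the single shares is 48.0%. Lgr4 and Lgr6 were found together in 20.5% (17.9 to 23.2), above the product of 15.6%. Lgr5 and Lgr6 were found together in 11.98% (9.95 to 14.3), below the product of 16.9%. The products pool clusters with unlike levels of the receptors, so values above or below them are not read as links within cells. In Gli2EKO the pairs stood at 47.1%, 16.5% and 11.3%, beside products of 47.9%, 14.2% and 14.8%. Within the Nlgn1 cluster alone, Lgr5 and Lgr6 were together in 26.9% of control cells, with an interval of 21.6 to 32.8 that held the product of 32.2%. In immune and endothelial cells thinned alike, 5.62% of control cells had a UMI of Lgr5, and none of 89 had one of Lgr6 (interval 0 to 4.06). Unthinned, 80.5% of the control ORS stem-like cells had a UMI of Lgr5, at a median depth of 11578 UMIs against 9914 in the immune and endothelial cells.

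In counts per cell, Lgr5 was a strong signal in its leading classes. The median ORS stem-like cell had 5 UMIs of Lgr5 in control and 3 in Gli2EKO, and the highest cells had 48 and 22. In control, 412 of 974 cells had 6 or more UMIs and 190 had none. In Gli2EKO, 179 of 548 cells had 6 or more and 95 had none. The Tagln/Acta2 cluster had 6 control cells of 202 and 5 Gli2EKO cells of 85 without a UMI of Lgr5. Lgr6 in the upper follicle had a median of 3 UMIs per cell in both libraries.

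Between the libraries, all 3 receptors were lower in Gli2EKO over the pooled keratinocytes. Lgr4 stood at 177 CPM in control and 118 CPM in Gli2EKO, a log2 ratio of -0.58 (interval -0.64 to -0.53). Lgr5 stood at 173 and 103 CPM, a log2 ratio of -0.75 (-0.81 to -0.69). Lgr6 stood at 84.6 and 63.0 CPM, a log2 ratio of -0.43 (-0.50 to -0.35). The makeup of the keratinocytes moved with this result, since the IFE basal class, low in receptors, held 10.7% of control and 24.2% of Gli2EKO keratinocytes, and the ORS stem-like class 29.3% and 23.7%. With the Gli2EKO clusters weighted to the control shares, the log2 ratios were -0.21 for Lgr4, -0.23 for Lgr5 and -0.17 for Lgr6. Of the 5 genes of the set with at least 50 UMIs over both libraries, Lgr5 and Rspo1 were past 1.5-fold, both lower. Over all 15635 genes with that count, 14.1% were past 1.5-fold in either direction.

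Within classes the receptors did not move as one. In ORS stem-like cells the log2 ratio was -0.06 for Lgr4 with an interval that held 0, -0.21 for Lgr5 (-0.28 to -0.14) and -0.28 for Lgr6 (-0.43 to -0.12). No receptor was past 1.5-fold there, Rspo1 was, and so were 7.14% of all genes. In the upper follicle Lgr4 was lower in Gli2EKO with -0.68 (-0.89 to -0.47) and Lgr6 with -0.46 (-0.59 to -0.33). Lgr4 was past 1.5-fold in this class, and so by count was Lgr5, beside 12.2% of all genes. No difference is drawn for Lgr5, since its control level overlapped the control background of 19.2 CPM and the Gli2EKO background was 1.86 CPM. That control background rests on few cells. In the matrix/progenitor class Lgr5 and Lgr6 were higher in Gli2EKO, by 0.54 (0.33 to 0.75) and 0.64 (0.44 to 0.83), while Lgr4 was lower at -0.47 (-0.64 to -0.30). Of the members counted there, only Lgr6 was past 1.5-fold in this class, beside 11.8% of all genes. In IFE basal cells Lgr6 was lower by a log2 ratio of -1.001 (-1.25 to -0.76), and Lgr5, at background, was also past 1.5-fold, beside 8.17% of all genes. In the sebaceous gland class the ratio was -0.83 (-1.13 to -0.52) for Lgr4 and -0.65 (-0.91 to -0.39) for Lgr6. Under other settings that Lgr6 ratio ranged from -1.33 to -0.18. In the inner root sheath Lgr4 stood at -0.61 (-0.89 to -0.34).

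The matrix/progenitor class joined 2 clusters that differed in depth. In the cluster led by Dcn, Mt2 and Shh, Lgr5 stood at 57.7 CPM in control and 96.1 CPM in Gli2EKO, and Lgr6 at 55.3 and 104 CPM. In the cluster led by Sox5, Bach2 and Edar, Lgr5 stood at 158 and 148 CPM, and Lgr6 at 236 and 250 CPM, with intervals of the ratio that held 0. The Sox5 cluster had a median of 5748 UMIs and 9.26% mitochondrial UMIs per control cell, against 16688 UMIs and 2.10% in the Shh cluster. Without the Sox5 cluster the log2 ratios were 0.74 for Lgr5 and 0.91 for Lgr6. When classes were given cell by cell from the fixed markers, the ratio of Lgr5 was -0.20 with an interval that held 0, so its direction in the matrix rests on how the class is drawn.

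**Figure D2:**
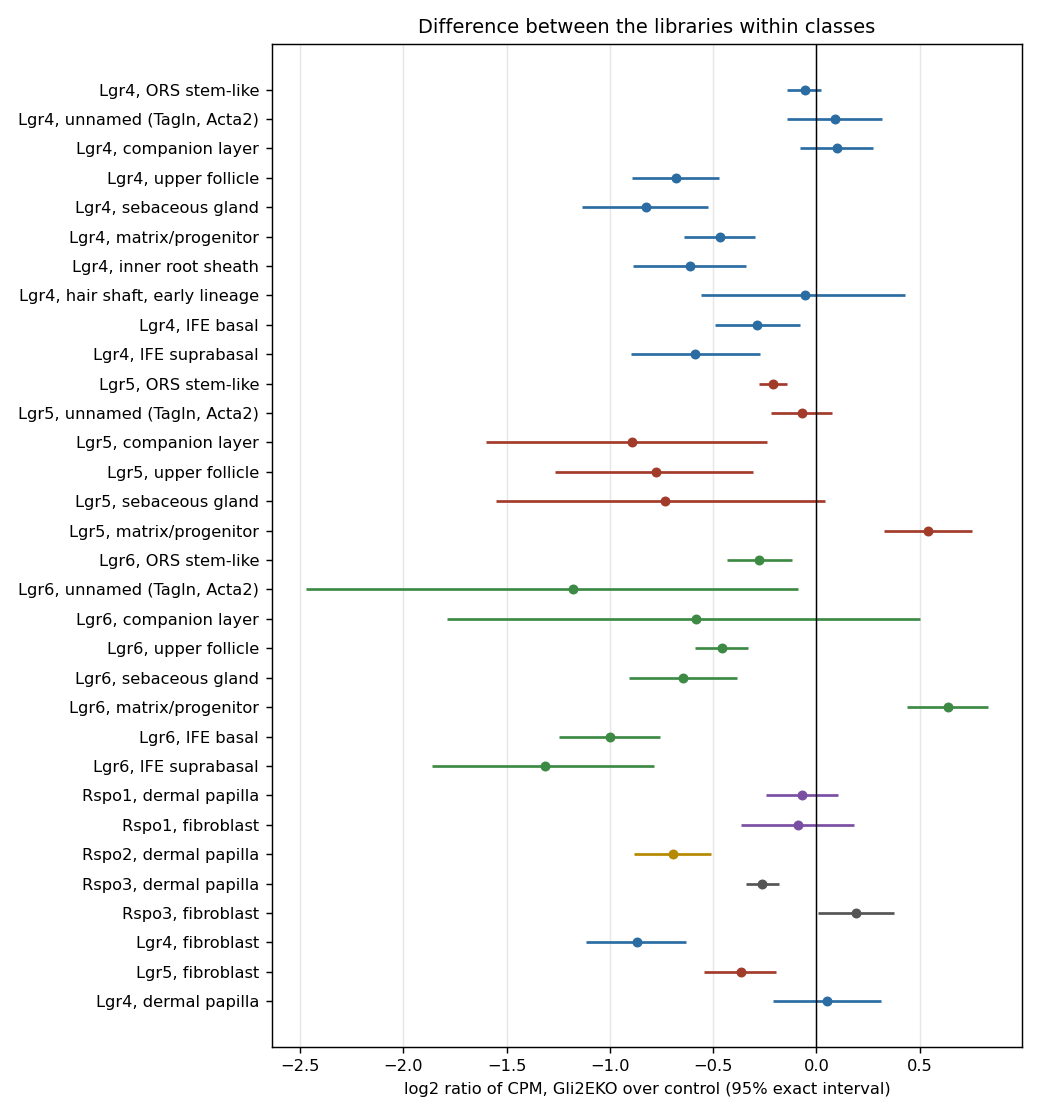
Log2 ratio of CPM, Gli2EKO over control (horizontal axis), for Lgr4, Lgr5, Lgr6, Rspo1, Rspo2 and Rspo3 by class, with exact 95% intervals as bars and 1 colour per gene. Points left of 0 are lower in Gli2EKO, as for Lgr4 in the upper follicle at -0.68, and Lgr5 and Lgr6 in the matrix/progenitor class lie right of 0 at 0.54 and 0.64.

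Lgr5 was also counted in dermal fibroblasts. The fibroblast class had 120 CPM in control and 92.9 CPM in Gli2EKO, but 389 of 494 control cells had no UMI of it. The UMIs lay mostly in the cluster led by Clec3b and C1qtnf3, at 260 CPM in control and 258 CPM in Gli2EKO, with a UMI in 52 of 144 and 41 of 107 cells and up to 50 per cell. The cluster led by Coch, Nrg1 and Dkk1 had 98.3 CPM in control and 17.0 CPM in Gli2EKO, from 118 and 15 UMIs. Its log2 ratio was -2.53 (-3.41 to -1.75). Dividing fibroblasts, led by Prc1 and Top2a, went the other way by count, with 10.8 CPM of Lgr5 in control and 36.4 CPM in Gli2EKO. The log2 ratio was 1.75 (0.90 to 2.68). No difference is drawn from it. The control value, from 16 UMIs, lay below the control background of 19.2 CPM, which itself rests on few cells. Lgr4 in the Clec3b cluster was 171 CPM in control and 93.0 CPM in Gli2EKO. Over the fibroblast class, Lgr4 was lower by -0.87 (-1.11 to -0.63) and Rspo4 was higher by 1.14 (0.39 to 1.92). Of 6 members counted, these were the ones past 1.5-fold, beside 8.04% of all genes. The Rspo4 ratio rests on 25 control and 42 Gli2EKO UMIs, at most 3 and 4 per cell. No UMI of Rspo4 was in 475 of 494 control and 377 of 407 Gli2EKO cells. The dermal papilla itself had 10.4 CPM of Lgr5 in control and 14.8 CPM in Gli2EKO, where the immune and endothelial cells of the same libraries had 19.2 and 1.86 CPM.

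The dermal papilla was the leading source of Rspo1, Rspo2 and Rspo3. This class was named from Corin, Alx4, Prdm1, Fgf7, Alpl, Hhip and related markers and held 197 control and 159 Gli2EKO cells. Rspo3 stood at 2094 CPM (2025 to 2166) in control and 1747 CPM (1669 to 1828) in Gli2EKO. Rspo1 stood at 427 CPM (396 to 460) and 407 CPM (370 to 447). Rspo2 stood at 507 CPM (473 to 543) and 313 CPM (280 to 348). The papilla held 96.2% of all control UMIs of Rspo2, 83.8% of those of Rspo3 and 61.4% of those of Rspo1.

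The papilla held 2 clusters that Rspo2 told apart more than Rspo1 or Rspo3. In the cluster led by Dcc, Kcnd2 and Fgf7, Rspo2 stood at 741 CPM in control and 661 CPM in Gli2EKO. In the cluster led by Prokr2, Clstn2 and Prdm1 it stood at 131 and 87.1 CPM. Rspo3 stood at 2433 and 2137 CPM in the Dcc cluster and at 1549 and 1494 CPM in the Prokr2 cluster. Rspo1 stood at 417 and 475 CPM in the Dcc cluster and at 445 and 364 CPM in the Prokr2 cluster. Rspo4 had 30 control UMIs in the Dcc cluster (29.8 CPM) and 2 in the Prokr2 cluster.

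The lower Rspo2 of the Gli2EKO papilla came beside different shares of these clusters, whose part in it was not tested. The Dcc cluster held 112 control but 59 Gli2EKO cells, and the Prokr2 cluster 85 and 100. Over the papilla the log2 ratio of Rspo2 was -0.70 (-0.88 to -0.51), the only member with 50 UMIs past 1.5-fold, beside 11% of all genes. Within the Dcc cluster it was -0.17 (-0.37 to 0.03), and within the Prokr2 cluster -0.59 (-1.10 to -0.09). For Rspo3 the log2 ratio was -0.26 (-0.34 to -0.18) over the papilla, -0.19 in the Dcc cluster and -0.05 in the Prokr2 cluster. For Rspo1 it was -0.07 over the papilla, with an interval that held 0. Over all fibroblast-lineage cells, weighting the Gli2EKO clusters to the control shares moved Rspo2 from -0.73 to -0.35 and left Rspo3 at -0.19. Papilla cells had a median of 7886 UMIs in control and 6569 in Gli2EKO. The summed CPM of the 11 papilla markers, all of them detected, was 6281 in control and 3882 in Gli2EKO, and their part in the Rspo2 result was not tested.

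**Figure D3:**
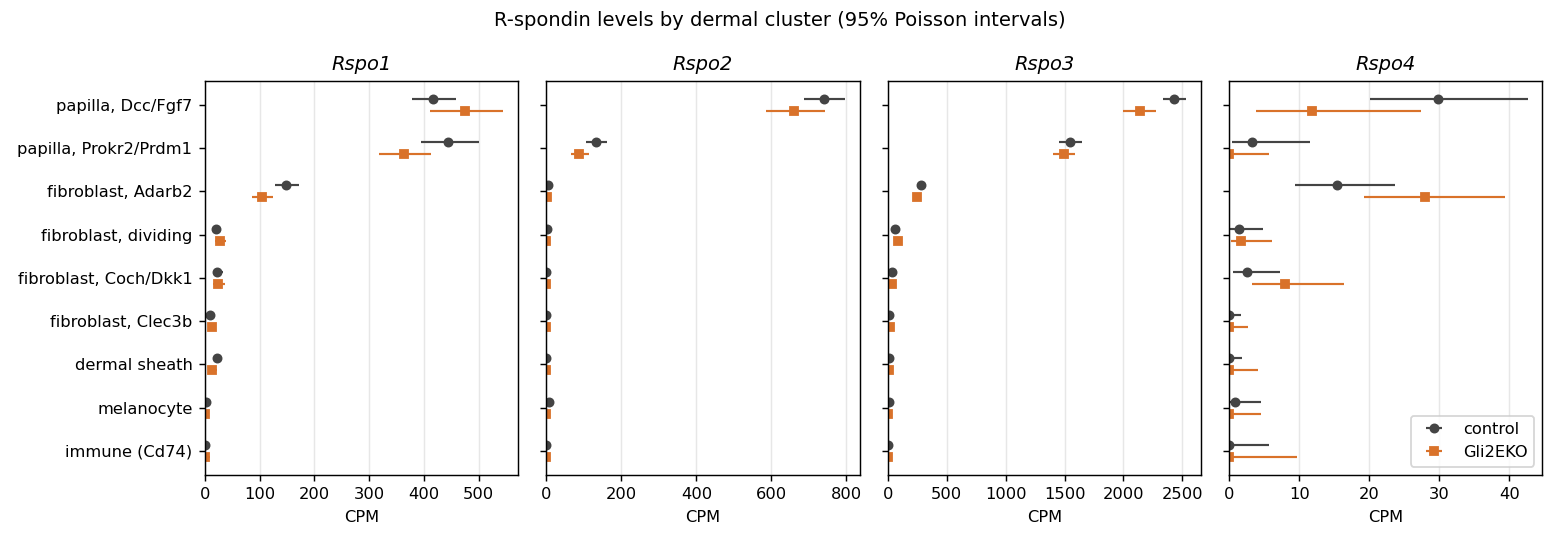
Level of Rspo1 to Rspo4 in CPM (horizontal axes, linear and different for each gene) in the papilla, fibroblast and dermal sheath clusters, melanocytes and the larger immune cluster, for control (circles) and Gli2EKO (squares), with 95% Poisson intervals as bars. Rspo2 stands at 741 CPM in the control Dcc/Fgf7 papilla cluster and at 131 CPM in the Prokr2/Prdm1 cluster, and Rspo1 and Rspo3 extend into the Adarb2 fibroblasts at 148 and 280 CPM.

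Papilla cells often carried several R-spondin RNAs. After thinning to 5000 UMIs, 93.0% of 185 control papilla cells had a UMI of Rspo3, 76.2% one of Rspo1 and 58.9% one of Rspo2. Of the 109 control cells with Rspo2, 108 also had Rspo3, and of the 62 such Gli2EKO cells, 62 had Rspo3. Rspo1 and Rspo3 were together in 72.4% of control and 68.1% of Gli2EKO papilla cells, near the products of 70.9% and 63.6%. The median papilla cell had 12 UMIs of Rspo3 in control and 8 in Gli2EKO, with a maximum of 116 and 76. In immune and endothelial cells Rspo3 had 1 control UMI, and its 7 Gli2EKO UMIs all came from 1 endothelial cell.

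Beyond the papilla, Rspo1 and Rspo3 were counted in the fibroblast cluster led by Adarb2 and Prss35. Rspo3 stood there at 280 CPM in control and 245 CPM in Gli2EKO, and Rspo1 at 148 and 104 CPM. Rspo2 had 6 control UMIs and 1 Gli2EKO UMI in these cells. Rspo4 had 20 UMIs (15.4 CPM) in control and 33 UMIs (28.0 CPM) in Gli2EKO. The intervals of these levels overlapped, and the log2 ratio was 0.87 (0.02 to 1.75). In the papilla Rspo4 had 32 control UMIs against 5 in Gli2EKO, a log2 ratio of -2.08 (-3.80 to -0.71). Within the Dcc cluster the Rspo4 ratio was -1.34, with an interval of -3.07 to 0.04. The dividing fibroblasts had 56.6 CPM of Rspo3 in control and 87.9 CPM in Gli2EKO. Dermal sheath cells, the contractile coat of the follicle, had 11.1 and 7.83 CPM of Rspo3 and no UMI of Rspo2.

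Rspo1 was also counted at a low level in ORS stem-like keratinocytes. In control, 66 of 974 cells had 92 UMIs, 7.41 CPM (5.97 to 9.09), and no cell had more than 4. In Gli2EKO, 10 of 548 cells had 14 UMIs, 2.24 CPM (1.22 to 3.75), a log2 ratio of -1.73 (-2.65 to -0.91). The UMIs lay in the Spon1 cluster, with 58 control and 7 Gli2EKO UMIs, and the histone cluster, with 33 and 6. Rspo3, far above Rspo1 in the papilla, had 6 control UMIs in the ORS stem-like class. Immune and endothelial cells had no Rspo1 UMI, which at 3 counts allows up to 2.51 CPM in control and 5.57 CPM in Gli2EKO. The Gli2EKO value of 2.24 CPM is therefore not shown to lie above background. The summed CPM of the 11 papilla markers in the class was 51.2 in control and 53.4 in Gli2EKO. It was 33.6 and 34.2 in the Spon1 cluster, 37.1 and 27.9 in the histone cluster and 110 and 137 in the Nlgn1 cluster. The Nlgn1 cluster had 1 UMI of Rspo1 in each library. Hhip was also on the marker list of the lower outer root sheath, so the sum does not measure papilla RNA alone.

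**Figure D4:**
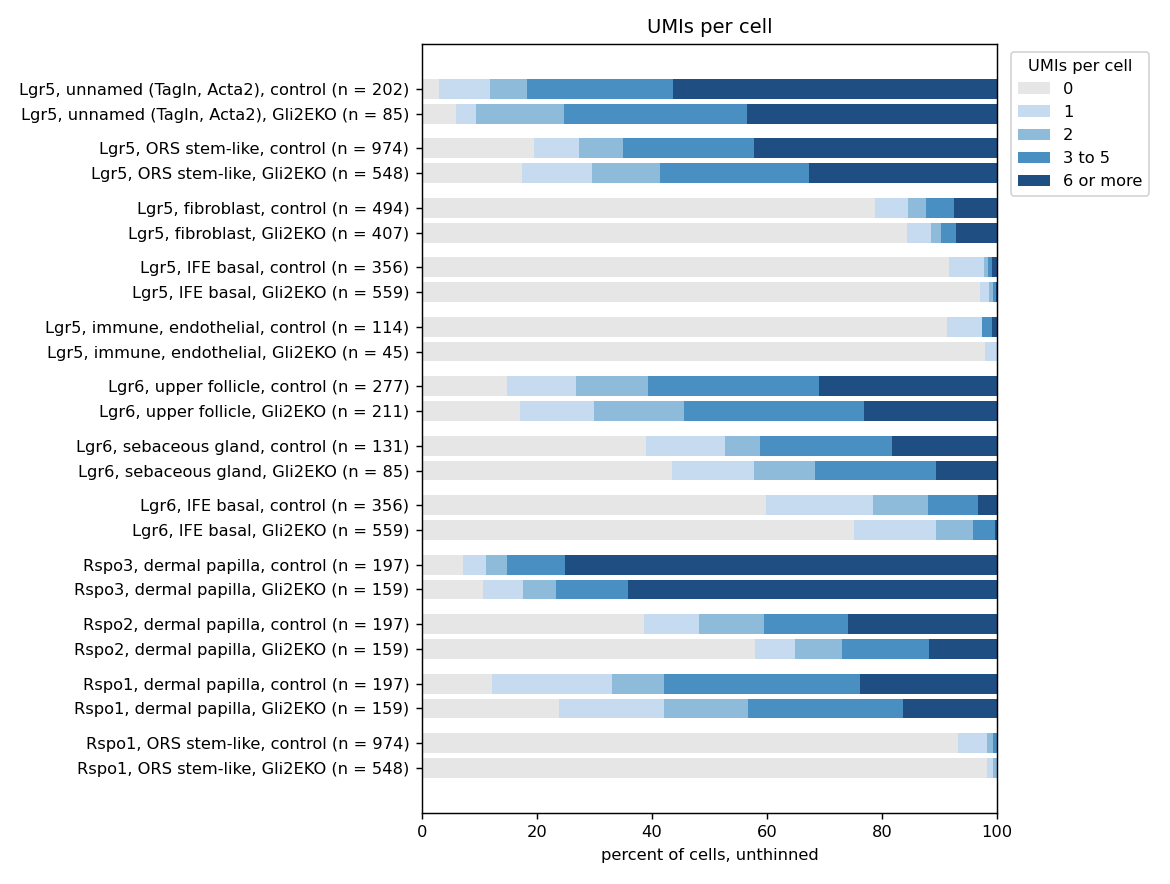
Percent of cells (horizontal axis, unthinned) with 0, 1, 2, 3 to 5 and 6 or more UMIs of a gene in a class, 1 bar per library with the number of cells. Lgr5 is at 6 or more UMIs in 412 of 974 control ORS stem-like cells and 10 of 114 control immune and endothelial cells hold any, while Rspo1 is at 0 in 908 of the 974 ORS stem-like cells.

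The genes whose levels were most like each member were found by Pearson correlation of log2(CPM + 10) over 35 points, 19 control and 16 Gli2EKO classes. The points share libraries and depth, and the values are descriptions. For Lgr4 they were Rerg (r = 0.89), Wnt5b, Zbtb44, Slc16a7 and Ormdl3, all others at 0.82 or 0.83. For Lgr5 they were ENSMUSG00000119995 (0.87), Gm21955, Gnmt, Prss35 and B930095G15Rik. For Lgr6 they were Gm47902 (0.84), Myorg, Smoc2, Tst and Gm42906. For Rspo1 they were Frzb (0.98), Hhip, A230057D06Rik, Ndp and Zic4. For Rspo2 they were Gdf10 (0.99), Draxin, Hmgcll1, Spock1 and Prokr2. For Rspo3 they were Pappa2 (0.98), Zic4, Hhip, Rspo1 and A230057D06Rik. Hhip, a Hedgehog-binding protein, was also one of the papilla markers. Between the members, r was 0.96 for Rspo1 and Rspo3, 0.89 for Rspo2 and Rspo3, 0.63 for Lgr4 and Lgr5 and 0.29 for Lgr5 and Lgr6.

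The genes around the receptors were read from a list of 14 Wnt receptor genes, which are Znrf3, Rnf43, Lrp5, Lrp6 and Fzd1 to Fzd10. Over all keratinocytes 3 of 13 counted genes were past 1.5-fold, beside 14.1% of all genes, and these were Lrp6, Fzd4 and Fzd5, all lower in Gli2EKO, with a list median of -0.43 beside -0.14 for all genes. Lrp6, a Wnt co-receptor, stood at 128 CPM in control and 84.7 CPM in Gli2EKO. Fzd4 stood at 6.89 and 3.05 CPM and Fzd5 at 22.3 and 10.8 CPM, both Frizzled receptors. Znrf3, the ligase removed by R-spondin, stood at 205 and 154 CPM, and Rnf43, its close relative, at 47.7 and 37.6 CPM. Lrp5, a second co-receptor, stood at 37.7 and 34.2 CPM.

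In ORS stem-like cells 2 of 13 counted receptor genes were past the fold, beside 7.14% of all genes, and these were Fzd8 and Fzd10, both lower in Gli2EKO. Fzd10 stood at 9.35 CPM in control and 4.16 CPM in Gli2EKO, and Fzd8 at 4.35 and 1.60 CPM. Znrf3 there stood at 109 and 103 CPM and Lrp6 at 169 and 145 CPM. In the upper follicle 1 of 10, beside 12.2% of all genes, was past it, Fzd6 at 69.2 and 45.8 CPM, and Znrf3 stood at 222 and 155 CPM. In the matrix/progenitor class, where Znrf3 was highest of the classes read, at 388 and 358 CPM, 1 of 12 was past the fold, beside 11.8% of all genes, Fzd4 at 6.61 and 2.06 CPM. In IFE basal cells 1 of 11 was, beside 8.17%, Fzd7 at 7.64 and 4.05 CPM. In fibroblasts 4 of 10 were, beside 8.04%, with Lrp5, Fzd1 and Fzd4 lower and Fzd10 higher. In the papilla 1 of 7 was, beside 11%, Fzd1 at 30.7 and 10.2 CPM. In the upper follicle, matrix/progenitor, IFE basal and papilla classes the list's share was thus near that of all genes.

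The list of 10 Wnt target genes, whose RNA is known to follow Wnt signal in many tissues, was counted in the same way. In ORS stem-like cells 3 of 6 counted genes were past 1.5-fold lower in Gli2EKO and none higher, beside 7.14% of all genes in either direction, with a list median of -0.55 beside -0.04 for all genes. Lef1, a transcription factor of the pathway, stood at 29.3 CPM in control and 12.2 CPM in Gli2EKO. Axin2, a feedback inhibitor, stood at 8.70 and 5.43 CPM, and Tnfrsf19 at 15.9 and 10.2 CPM. In control matrix/progenitor cells Lef1, Axin2 and Tnfrsf19 were far higher, at 542, 51.9 and 261 CPM. That class held 16.0% of control and 9.49% of Gli2EKO keratinocytes. No background level was read for these genes, and the part of RNA from other cells in the ORS stem-like values was not tested. In fibroblasts 4 of 7 were past it higher and none lower, beside 8.04%, with a list median of 0.64 beside -0.02. Axin2 stood there at 32.4 and 50.6 CPM, Tcf7 at 60.1 and 146 CPM, Nkd1 at 96.7 and 187 CPM and Apcdd1 at 160 and 294 CPM. The difference between the ORS stem-like and fibroblast ratios was not tested.

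In the papilla 3 of 8 target genes were past the fold higher and 1 lower, beside 11% of all genes in either direction. The higher genes were Tcf7 at 38.6 and 79.6 CPM, Nkd2 at 221 and 336 CPM and Tnfrsf19 at 78.5 and 152 CPM. Notum, a secreted Wnt inhibitor, was the lower gene, at 96.9 and 45.4 CPM. Lef1 in the papilla stood at 498 and 463 CPM. In the matrix/progenitor class 2 of 8 were past it, beside 11.8%, of which Sp5 was higher at 7.74 and 24.0 CPM and Notum was lower at 20.3 and 12.7 CPM. In IFE basal cells 2 of 6 were past it, beside 8.17%, both higher, Lef1 at 71.4 and 171 CPM and Ascl2 at 4.65 and 7.99 CPM. In the upper follicle none of 5 was past the fold, beside 12.2%, with Axin2 at 43.4 and 33.3 CPM. Over all keratinocytes 4 of 10 were past it, beside 14.1%, with Lef1, Tcf7 and Notum lower and Ascl2 higher.

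**Figure D5:**
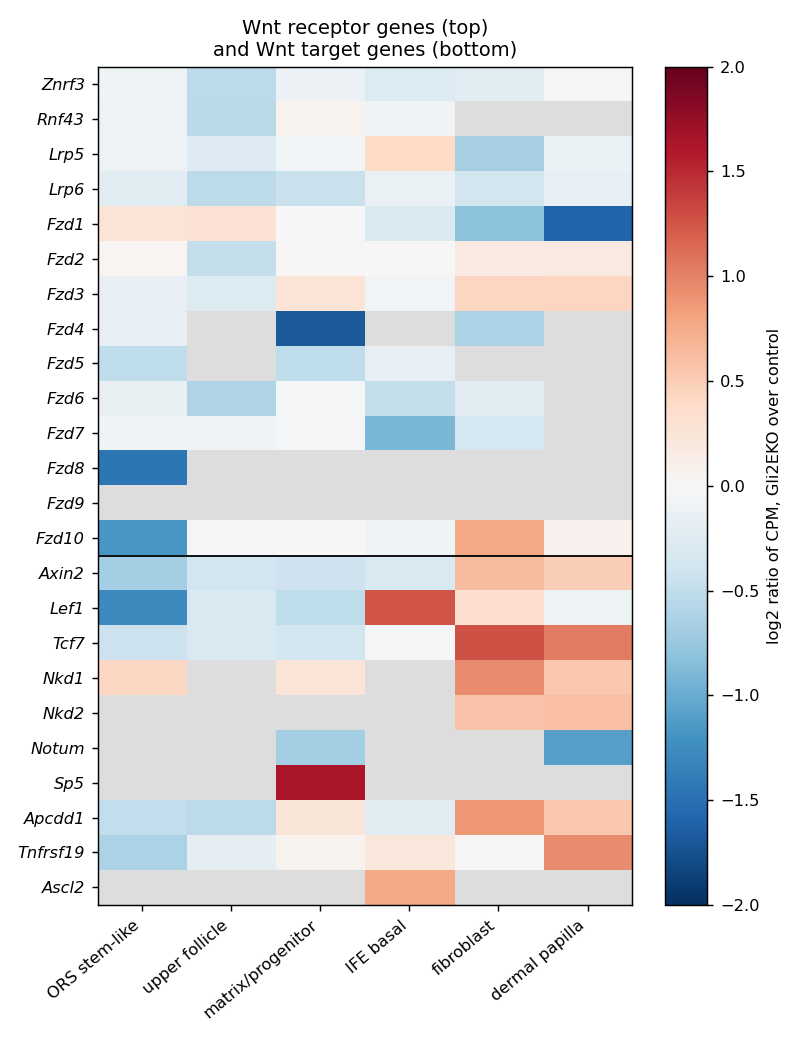
Log2 ratio of CPM, Gli2EKO over control (colour), of 14 Wnt receptor genes above the line and 10 Wnt target genes below it, in 6 classes, with grey where both libraries together had under 50 UMIs. Target genes such as Lef1 and Axin2 are blue, or lower in Gli2EKO, in ORS stem-like cells, and Tcf7, Nkd1 and Apcdd1 are red, or higher, in fibroblasts.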

How the data were processed

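The authors deposited raw counts, the filtered UMI matrices of 2 libraries made with Cell Ranger 9.0.1 on GRCm39 per the submitters' processing notes, with 71021773 UMIs in 6326 control barcodes and 48866478 UMIs in 4296 Gli2EKO barcodes. Cells with over 1000 and under 8000 genes and under 15% mitochondrial UMIs were kept, as in the study. The 8% of cells with the highest Scrublet score in each library (scanpy 1.11.5) were removed, since the automatic threshold marked 260 control but 5 Gli2EKO cells; the study used scDblFinder. Clustering used Seurat 5.3.0 (20 components, resolution 0.5) with the Harmony algorithm written anew. The 7 genes and the lists were left out of the variable genes. Clusters of at least 20 cells were named at a marker score of at least 1 with at least 3 markers, unless another list had more markers among the 10 leading genes or the cluster was shallow with no own marker there; shaft and early lineage were joined after the data were seen. CPM, ratios and shares were computed from summed UMIs. Genes with at least 50 UMIs were counted past 1.5-fold, with 0.5 UMIs added only for that count. Members, markers and lists were chosen with earlier results of these data known. Named genes are the members, listed Wnt genes past the fold or fixed, the 5 most alike of at least 200 UMIs, and markers; leading genes of clusters were chosen after their values were seen. Coordinates and sequences come from GENCODE M39 on the same build. The ratio code was tested on simulated data.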

Additional observations from a re-analysis of the deposited data

How the results depend on the processing

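Depth limits most the 59 and 48 UMIs of Rspo4 and the classes under 100 cells. No paired analysis was possible because each genotype has 1 library and no test was made. The settings without a named cluster were chosen after seeing the data. A class not found under a setting has no value there, and the cause of the shifts below was not tested.

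With classes given cell by cell from markers, the log2 ratio of Lgr5 in the matrix/progenitor class reversed to -0.20 from 0.54. The ratio of Lgr6 in the upper follicle was -0.32 without doublet removal, -0.30 with cell-by-cell classes and -0.33 as a mean of each cell's own CPM. The Rspo3 ratio over fibroblast-lineage cells was -0.32 at resolution 0.3 and -0.33 with cell-by-cell classes, which gave -0.37 in the papilla. Over all keratinocytes, each cell's own CPM gave -0.43 for Lgr4 and -0.56 for Lgr5. Weighting to control clusters gave -0.21 for Lgr4, -0.23 for Lgr5, -0.17 for Lgr6 and, over fibroblast-lineage cells, -0.35 for Rspo2. Without the Nlgn1 cluster Lgr5 was -0.81.

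The leading classes held 44.9% of Lgr4 (ORS stem-like), 71.0% of Lgr5 (ORS stem-like) and 33.04% of Lgr6 (upper follicle) of the control keratinocyte UMIs. In that order, the shares were 39.5%, 65.5% and 30.6% without doublet removal and 40.4%, 69.0% and 56.7% with 15% of cells removed. They were 35.7%, 69.1% and 62.2% at under 10% mitochondrial UMIs. They were 42.1%, 69.4% and 49.7% at resolution 0.8 and 34.6%, 67.9% and 39.8% at resolution 0.3. Without integration they were 34.0%, 65.8% and 65.9%, and with cell-by-cell classes 39.7%, 66.5% and 41.0%. With the members among the variable genes, Lgr4 had 43.7% and Lgr6 43.9%. Without the Sox5 cluster they were 47.4%, 72.2% and 34.9%, and without the Nlgn1 cluster 32.8%, 67.6% and 42.5%.

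At least 20 UMIs counted 2 list genes in the upper follicle, not 1. Of the list genes past 1.5-fold, 4 of 7 in keratinocytes and 3 of 5 in ORS stem-like cells were also past 2-fold. So were 0 of 1 in the upper follicle and 1 of 3 in IFE basal cells. In fibroblasts 1 of 8 were, and in the papilla 3 of 5. Over all genes, 210 were past 2-fold higher and 484 lower of 15635 in keratinocytes. In ORS stem-like cells 63 were higher and 197 lower of 11847. In fibroblasts 67 were higher and 116 lower of 11118, and in the papilla 73 and 92 of 7840. Each result was compared with its value under each setting. A level, ratio or share was said to move if it left its first interval, and a list count if it changed by over 1.5-fold. For the main results, 96 comparisons stayed and 49 moved. For the other results, 246 stayed, 185 moved and 1 reversed.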
